A study of Rattus norvegicus with 4 samples.

Results

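The genes described here encode 9 core components of TGF-beta and activin signalling in the rat. They are the ligands Tgfb1, Tgfb2 and Tgfb3 and the activin subunit gene Inhba, the receptors Tgfbr1 and Tgfbr2, the co-receptors Tgfbr3 and Eng, and the activin-binding protein gene Fst. They were chosen by name with earlier results of these data known, as were the gene lists used below. Counts of them set beside shares of all genes are therefore a description only. The probes of the 9 genes were found through the accession that the scanner files give for each probe, matched to RefSeq. All 9 had a named probe, among 8927 genes named on the array, and together they had 12 probes. Levels were measured on 4 Agilent 1-colour arrays, each of which stood alone for its group. These were neurons derived from olfactory bulb stem cells (OB Neu), neurons derived from hippocampal stem cells (HPC Neu), neural stem cells of the olfactory bulb (OB NSC) and neural stem cells of the hippocampus (HPC NSC), all from rats of the strain fisher 344, with adult tissue named in the series title. The labels name no treatment, genotype or differentiation protocol. Each array held the pooled RNA of 3 experiments, so no difference below has a replicate check and none was tested.

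TGF-beta ligands are secreted in a latent form and act after release from it. The ligand binds the type II receptor, encoded by Tgfbr2, which phosphorylates the type I receptor, encoded by Tgfbr1, and that receptor activates Smad2 and Smad3. Activins signal to the same Smads through their own receptors, and follistatin, the product of Fst, binds activin and keeps it from its receptors. In the adult brain TGF-beta is known to restrain the proliferation of neural progenitors.

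A level here is the log2 of the background-subtracted signal minus the array's 75th percentile, so 0 is the brightness of a probe at that percentile. Levels of different probes were not compared, because probes bind with different strength. A difference was called at 1 log2 unit (2-fold) or more. Where a probe was not well above background on 1 of the arrays compared, the difference is a bound and is given as "at least". Both NSC arrays lay on 1 slide and both Neu arrays on the other, so slide and cell state cannot be told apart, while a comparison of bulb with hippocampus lies within a slide. Probes printed 10 times gave a median SD between 0.0613 and 0.0935 log2 units among their spots, which is the noise of spots and not of cultures. Differences under 0.224, which is 2 SD of a difference between single spots, are taken as within spot noise.

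The arrays labelled neurons did not carry a general rise of neuronal genes. Of 7022 genes compared, 26.9% were higher and 20.0% lower on the OB Neu array than on the OB NSC array. Of 6656 genes compared, 21.9% were higher and 26.8% lower on the HPC Neu array than on the HPC NSC array. Of 13 neuron markers compared, 3 were higher and 9 lower on the OB Neu array than on the OB NSC array. Between the HPC Neu and HPC NSC arrays, 2 of them were higher and 6 lower. By contrast, 12 of 12 genes that mark pericytes, fibroblasts and smooth muscle were higher in both sources. Of 6567 genes compared in both, 18.5% were higher in both. Only 3 of the 12 were well above background on each NSC array. The others entered through the Neu arrays only and could not have been lower. The summed signal of the 12 genes, in units of the array's 75th percentile, was 328.5 on OB Neu and 198.5 on HPC Neu. It was 0.277 on OB NSC and 0.528 on HPC NSC. Such sums add probes that bind with different strength. Col3a1, at levels of 7.90 and 7.24 on OB Neu and HPC Neu, made up most of the sum on both. Some other lists rose too, set beside the shares of all genes given above. Astrocyte markers were higher for 10 of 11 in bulb cells and 9 of 11 in hippocampal cells, with 1 lower in each. Of these, 6 and 5 were well above background on OB NSC and HPC NSC. Their summed signal was 151.3 and 146.2 on OB Neu and HPC Neu, against 33.2 and 43.3 on OB NSC and HPC NSC. Ependymal and choroid plexus markers were higher for 5 of 5 and 4 of 5, with 2 well above background on each NSC array. Neural stem and progenitor markers did not rise as a list. Of 8 compared, 3 were higher and 4 lower in each source, with medians of -1.20 in bulb cells and -0.94 in hippocampal cells. Of 8 ensheathing and Schwann markers, 5 were higher and 1 lower in bulb cells, and 2 were higher and 3 lower in hippocampal cells. The groups are therefore called below by their array labels.

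The clearest difference among the 9 genes was the high level of Fst, Eng and Inhba on both Neu arrays. On the OB Neu array, 6 of the 9 genes were higher than on the OB NSC array and 1 was lower, where 26.9% of 7022 genes compared were higher, 20.0% lower and 46.8% either. On the HPC Neu array, 5 of 9 were higher than on the HPC NSC array and 0 lower, where 21.9% of 6656 genes were higher, 26.8% lower and 48.7% either. Higher in both sources were 3 (Inhba, Eng and Fst) and lower in both 0, where 18.5% of 6567 genes compared in both were higher in both and 16.8% lower in both. The median difference of the 9 genes was 1.77 in olfactory bulb cells and 1.45 in hippocampal cells, and that of all genes compared was 0.09 and -0.32. Eng and Inhba entered these comparisons through the Neu arrays only and so could not have been lower. The same holds for Tgfbr1 in hippocampal cells, where it was not well above background on the HPC NSC array. With genes dim on any array left out, 4 were higher and 1 lower in bulb cells. In hippocampal cells 2 were then higher and 0 lower. The share of higher genes among all called genes, 57.4% in bulb cells and 44.9% in hippocampal cells, was 37.0% and 28.8% with scaling to the median, 69.6% and 65.9% with scaling over probes well above background on all arrays, and 25.4% and 66.6% with spike-in scaling. Spike-in scaling placed the median of all genes at -1.0 in bulb cells and 0.12 in hippocampal cells. Each of these scalings adds a constant to every difference. In bulb cells the constant was -0.54, 0.29 and -1.03 with the median, the probes above background on all arrays and the spike-ins, and in hippocampal cells it was -0.46, 0.42 and 0.44, so that a difference of opposite sign and smaller size changes sign with the scaling.

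**Figure D1:**
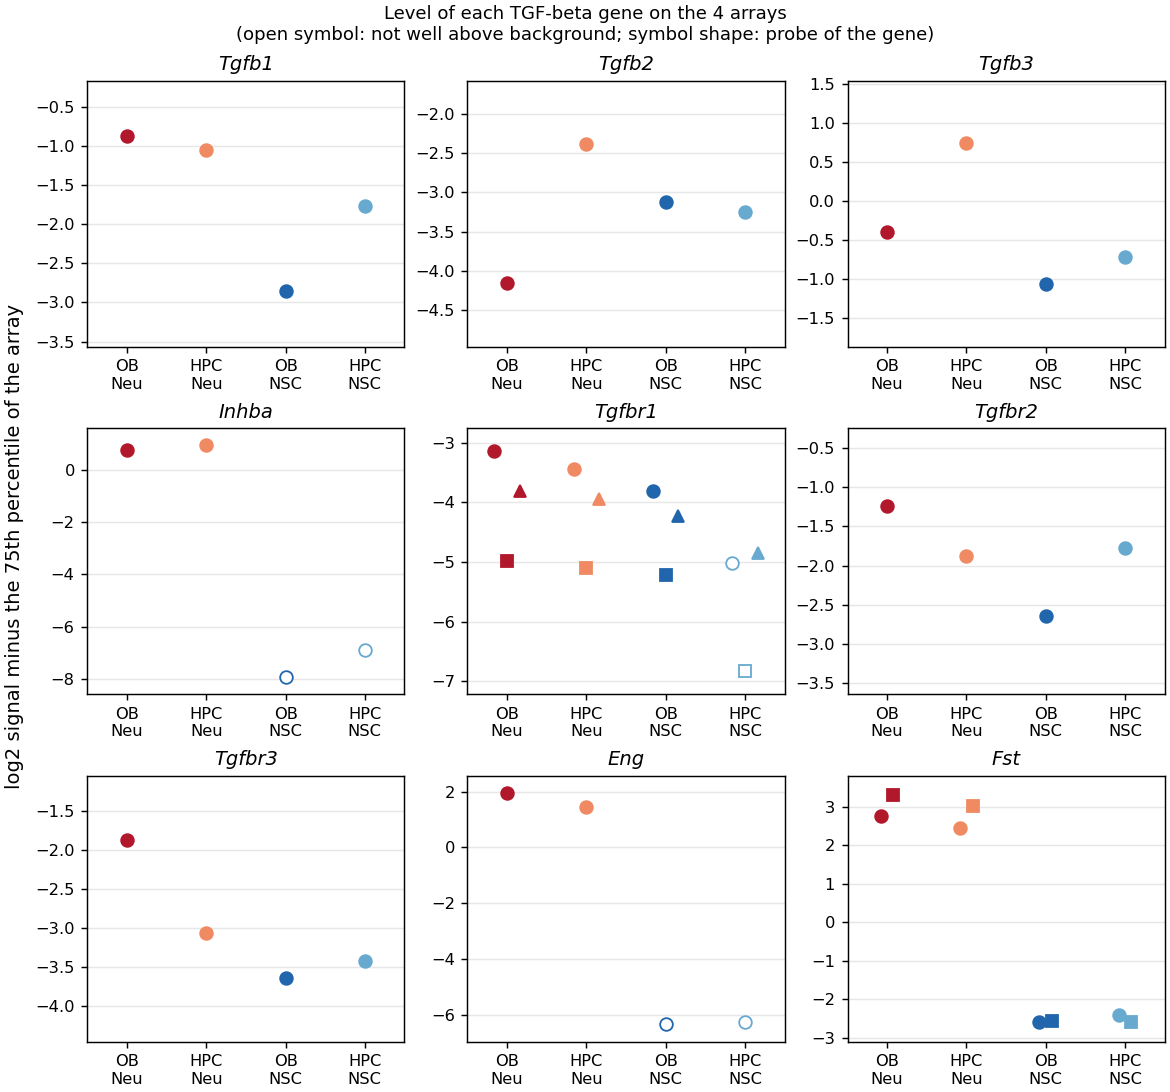
Level of each of the 9 genes (vertical axis, log2 signal minus the array's 75th percentile, with its own range in each panel) on the OB Neu, HPC Neu, OB NSC and HPC NSC arrays. Each symbol is 1 probe on 1 array, and open symbols were not well above background; Fst, Eng and Inhba stand apart between the Neu and NSC arrays, while the other 6 genes span less than 2 log2 units on every probe.

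Inhba encodes the subunit that forms activin A. Its signal was 1218 on the OB Neu array and 1538 on the HPC Neu array, against 3.37 on the OB NSC array and 4.17 on the HPC NSC array, where it was not well above background. The scaled levels were 0.75 and 0.93 on the OB Neu and HPC Neu arrays, against -7.92 and -6.87 on the OB NSC and HPC NSC arrays. Both Neu arrays were thus high and both NSC arrays at background, and the difference was at least 6.71 on the log2 scale in bulb cells and at least 6.35 (81.3-fold) in hippocampal cells. Between the sources, OB Neu minus HPC Neu was -0.18, within spot noise.

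Eng encodes endoglin, a co-receptor best known from endothelial cells and also carried by stromal cells. Its signal was 2800.2 on the OB Neu array and 2194 on the HPC Neu array, against 10.1 on the OB NSC array and 6.32 on the HPC NSC array, where it was not well above background. The difference was at least 241-fold in bulb cells and at least 116-fold in hippocampal cells. The OB Neu array lay 0.50 above the HPC Neu array, and this value ranged from -0.10 to 0.60 over the alternative settings. Acvrl1, which encodes the type I receptor ALK1 with which endoglin works in endothelium, showed the same pattern, at least 8.0 higher in bulb cells and at least 6.82 higher in hippocampal cells, and was likewise not well above background on either NSC array. Of all genes compared, 26.9% were higher in bulb cells and 21.9% in hippocampal cells. Of the endothelial markers, 5 could be compared, and 3 were higher on the OB Neu array than on the OB NSC array and 4 on the HPC Neu array than on the HPC NSC array. Their summed signal was 4.21 on the OB Neu array and 6.94 on the HPC Neu array, against 0.299 on the OB NSC array and 0.370 on the HPC NSC array. The defining endothelial marker Pecam1 was not well above background on any of the 4 arrays, and Cldn5, a tight junction gene of brain endothelium, differed by at least 0.82 and 0.70, bounds under 2-fold. By contrast Emcn, which encodes endomucin, was higher by at least 6.49 and 7.74, and Kdr, which encodes a VEGF receptor, by 3.48 and 2.36. The part of stromal or endothelial cells in the level of Eng was not tested, and in bulk RNA more cells of a type and more RNA per cell cannot be told apart.

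Promoter regions of Eng and Inhba are shown because these genes were both at background on the NSC arrays and both high on the Neu arrays. That of Tgfbr1 is shown beside them. On its brightest probe Tgfbr1 differed by 0.66 in bulb cells and by at least 1.58 in hippocampal cells. Sequences come from RefSeq on the assembly GRCr8 and matched 8 of the 9 genes by symbol, all but Fst. The region searched for each gene was the 250 bases before the start that this sequence table uses, which need not be the outermost start of the gene. Of these, 89 bases for Eng and 50 for Tgfbr1 lie inside the annotated extent of the gene and are not printed, and all 250 for Inhba lie inside it, so its start is an inner one. Sequences are printed 5′ to 3′ in the direction of the gene, with capitals for a match to a motif searched on both strands. The motifs were the TATA box (TATAAA), the GC box (GGGCGG), the AP-1 site (TGANTCA), the cyclic AMP response element (TGACGTCA) and the palindromic Smad element (GTCTAGAC), and no matches overlapped. The printed stretches lie at chr3:36332029-36332189, plus strand for Eng, chr17:53804509-53804758, minus strand for Inhba and chr5:66449148-66449347, plus strand for Tgfbr1.
Eng: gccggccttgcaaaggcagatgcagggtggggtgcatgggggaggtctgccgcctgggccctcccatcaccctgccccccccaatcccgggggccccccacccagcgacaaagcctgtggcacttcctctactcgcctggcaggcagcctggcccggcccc
Inhba: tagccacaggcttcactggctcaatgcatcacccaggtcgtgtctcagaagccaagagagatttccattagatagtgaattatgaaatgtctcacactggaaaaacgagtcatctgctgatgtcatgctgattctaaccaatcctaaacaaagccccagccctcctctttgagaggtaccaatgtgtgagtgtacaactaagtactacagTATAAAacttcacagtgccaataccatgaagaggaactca
Tgfbr1: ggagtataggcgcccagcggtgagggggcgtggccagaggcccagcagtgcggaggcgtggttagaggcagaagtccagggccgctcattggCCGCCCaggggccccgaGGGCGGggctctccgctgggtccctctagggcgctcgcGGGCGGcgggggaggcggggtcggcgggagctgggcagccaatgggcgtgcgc
The region of Inhba held 1 TATA box, 40 bases before the start used, and 43.6% G and C. That of Eng held 68.0% G and C and no match to the 5 motifs. That of Tgfbr1 held 75.6% G and C and 3 GC boxes. Among all 33469 regions of this length, 12.9% held the TATA box, 30.5% the GC box, 6.34% the AP-1 site, 1.59% the cyclic AMP response element and 0.173% the Smad element. Of the other 5 genes with a sequence, Tgfbr2 and Tgfbr3 held 1 GC box each and Tgfb1, Tgfb2 and Tgfb3 held no match.

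Fst was measured by 2 probes, and the brighter one gave the larger difference in both sources. The brighter probe lay at 3.30 on the OB Neu array and 3.02 on the HPC Neu array, against -2.56 on the OB NSC array and -2.60 on the HPC NSC array. The dimmer probe lay at 2.76 and 2.46 on the OB Neu and HPC Neu arrays, against -2.58 and -2.41 on the OB NSC and HPC NSC arrays. All 8 values were well above background, and both Neu arrays lay far above both NSC arrays. The difference in bulb cells was 58.3-fold on the brighter probe and 40.5-fold on the dimmer one, and in hippocampal cells 49.2-fold and 29.1-fold. Inhba and Fst, an activin subunit and its binding protein, were thus both higher in both sources. Inha, whose product joins the activin subunit to form the antagonist inhibin, was higher by 4.05 in bulb cells and 4.55 in hippocampal cells.

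The 3 TGF-beta ligand genes each had another order of levels over the 4 arrays. Tgfb1, the ligand best known from immune and stromal cells, was printed 10 times on each array. Over the spots that the scanner software did not mark as outliers, its level was -0.87 ± 0.04 on the OB Neu array and -1.05 ± 0.04 on the HPC Neu array, against -2.86 ± 0.08 on the OB NSC array and -1.76 ± 0.10 on the HPC NSC array (SD among 8, 9, 8 and 9 spots of 1 array each). It was 3.96-fold higher in bulb cells (log2 1.99) and 0.72 higher on the log2 scale, under 2-fold, in hippocampal cells. Both Neu arrays lay at similar levels, and OB NSC minus HPC NSC was -1.10, a value that ranged from -1.29 to -0.23 over the alternatives and was smallest with spike-in scaling. OB Neu minus HPC Neu, 0.17, ranged from -0.43 to 0.21 over the alternatives. The difference in bulb cells came to 0.96 with spike-in scaling. On the HPC NSC array 1 spot, marked as an outlier and left out, had a signal of 745, against 134 to 163 for the spots used. The share of all genes higher was 26.9% in bulb cells and 21.9% in hippocampal cells. Of the microglia and macrophage markers, 6 of 8 were higher in bulb cells and 5 of 8 in hippocampal cells. The summed signal of these markers was 8.05 and 7.27 on the OB Neu and HPC Neu arrays, against 0.927 and 0.967 on the OB NSC and HPC NSC arrays. The defining markers Itgam and Cx3cr1 were not well above background on any array, while Aif1 was higher by at least 5.35 and 3.87, C1qa by at least 5.99 and 3.88, Cd14 by at least 6.74 and 7.56 and Tyrobp by 4.53 and 2.80 in bulb and hippocampal cells. C1qb was higher by 3.31 and 1.66. The remaining markers compared differed less, Csf1r by 1.44 and 0.47, Cd68 by 0.75 and 0.40 and C1qc by 0.50 and -0.66. The part of microglia and macrophages in the level of Tgfb1 was not tested.

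**Figure D2:**
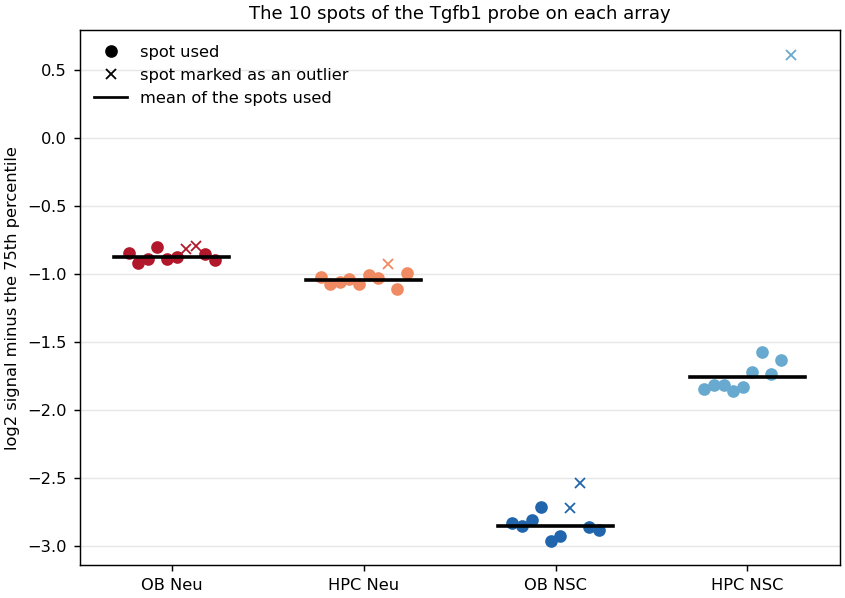
The 10 spots of the Tgfb1 probe on each array (vertical axis, log2 signal minus the array's 75th percentile), with crosses for spots marked as outliers and a line at the mean of the spots used. The spots used on the OB NSC array lie below those of the other arrays, and 1 outlier spot on the HPC NSC array lies far above the rest.

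Tgfb2, a ligand of the developing nervous system that needs betaglycan for strong receptor binding, went opposite ways in the sources. Its level was -4.16 on the OB Neu array and -2.38 on the HPC Neu array, against -3.12 on the OB NSC array and -3.25 on the HPC NSC array. The OB Neu array was the lowest and the HPC Neu array the highest, while the NSC arrays differed by 0.13, within spot noise. The difference was -1.04 in bulb cells and 0.87 in hippocampal cells, and OB Neu minus HPC Neu was -1.78 (3.44-fold lower). That last difference stayed at 2-fold or more under all 11 alternative settings, from -2.39 to -1.0. The difference in bulb cells ranged from -2.07 to -0.75.

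Tgfb3 lay at -0.39 on the OB Neu array and 0.74 on the HPC Neu array, against -1.07 on the OB NSC array and -0.72 on the HPC NSC array. The HPC Neu array was the highest, and the other arrays lay within 0.67 of each other. It was 2.74-fold higher in hippocampal cells (log2 1.45), and OB Neu minus HPC Neu was -1.13, between -1.73 and -1.09 over the alternatives. In bulb cells the difference of 0.67 was under 2-fold and ranged from -0.36 to 0.96.

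The signalling receptors differed less than Eng. Tgfbr2, the ligand-binding receptor, lay at -1.24 on the OB Neu array and -1.87 on the HPC Neu array, against -2.65 on the OB NSC array and -1.78 on the HPC NSC array. It was 2.64-fold higher in bulb cells (log2 1.40), and HPC Neu minus HPC NSC was -0.10, within spot noise and between -0.55 and 0.34 over the alternatives. The difference in bulb cells came to 0.37 with spike-in scaling. Tgfbr3, which encodes betaglycan, lay at -1.87 on the OB Neu array and -3.06 on the HPC Neu array, against -3.64 on the OB NSC array and -3.42 on the HPC NSC array. It was 3.41-fold higher in bulb cells (log2 1.77), with the OB Neu array alone high, and differed by 0.36 in hippocampal cells, from -0.10 to 0.80 over the alternatives.

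Tgfbr1, the type I receptor gene, had 3 probes. The brightest lay at -3.15 on the OB Neu array and -3.44 on the HPC Neu array, against -3.81 on the OB NSC array and -5.02 on the HPC NSC array, where it was not well above background. On every probe the HPC NSC array was the lowest. On the HPC Neu array Tgfbr1 was higher by at least 1.58 on the brightest probe, but by at least 0.31 on the dimmest probe and by 0.91 on the remaining one, which was well above background on all arrays. In bulb cells the 3 probes differed by 0.66, 0.24 and 0.43, all under 2-fold, and the first of these values ranged from -0.36 to 0.96 over the alternatives. The call in hippocampal cells therefore rests on 1 probe of 3.

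**Figure D3:**
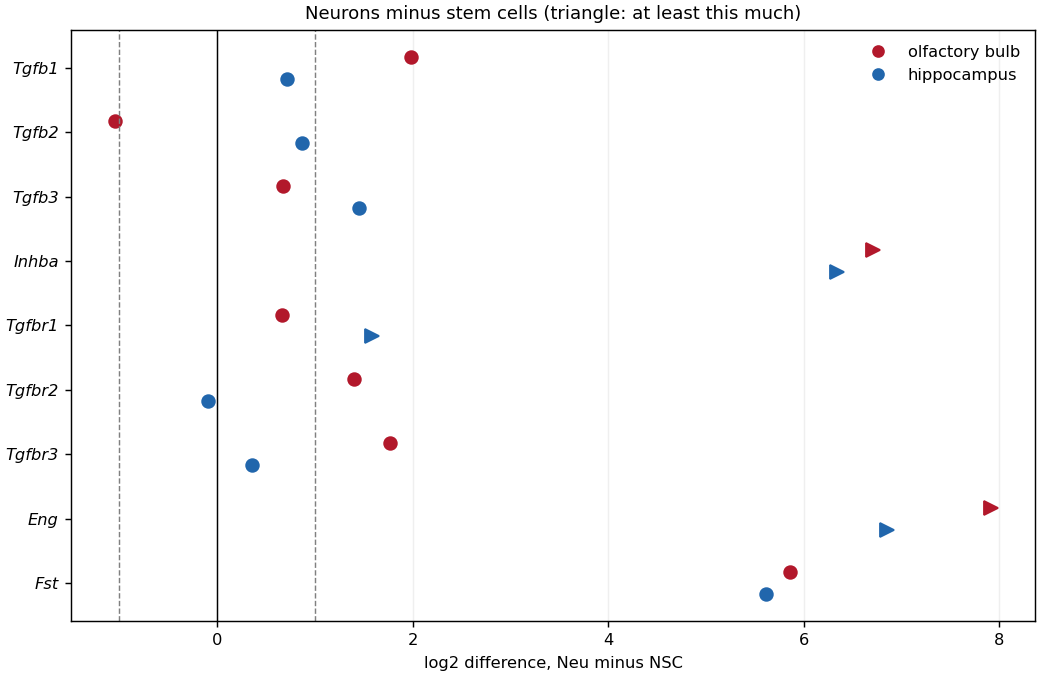
Log2 difference of each gene's brightest probe, Neu minus NSC (horizontal axis), in olfactory bulb cells (red) and hippocampal cells (blue), with triangles where the value is a lower bound and dashed lines at 2-fold. Eng, Inhba and Fst lie beyond 5 log2 units in both sources, and Tgfb2 lies at -1.04 in bulb cells and 0.87 in hippocampal cells.

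Of the 6 genes well above background on all arrays on the probe used, 4 changed by amounts that differed between the sources by 1 log2 unit or more, where 20.6% of 5495 genes did. The bulb change minus the hippocampal change was 1.27 for Tgfb1, 1.5 for Tgfbr2, 1.41 for Tgfbr3 and -1.91 for Tgfb2. For Tgfb3 it was -0.78 and for Fst 0.25. With spike-in scaling they were -0.20 for Tgfb1, 0.03 for Tgfbr2, -0.06 for Tgfbr3, -3.38 for Tgfb2, -2.25 for Tgfb3 and -1.22 for Fst, so that 3 of the 6 reached 1 log2 unit, where 60.3% of genes did and the median of all genes was -1.12. Of the 4 genes first named, Tgfb2 alone stayed at 1 log2 unit or more there. With normexp 2 of 6 reached it, where 13.2% of 5494 genes did. None of these values was tested.

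Bulb and hippocampal cells were also set side by side in the same state. Between the Neu arrays, 1 of 9 was higher in bulb cells (Tgfbr3, by 1.19) and 2 were lower (Tgfb2 and Tgfb3), where 7.66% of 6999 genes were higher, 8.0% lower and 15.7% either. Between the NSC arrays 7 genes could be compared, of which Tgfbr1 was higher by at least 1.21 and Tgfb1 was lower at -1.10, where 4.17% of 6026 genes were higher, 6.97% lower and 11.1% either. The other probes of Tgfbr1 gave at least 0.19 and 0.62 there. Tgfbr2 differed by 0.63 between the Neu arrays and by -0.87 between the NSC arrays, and by 0.03 and -0.0039 with spike-in scaling, and Fst by 0.28 and 0.03, with ranges of -0.32 to 0.40 and -0.10 to 0.90 over the alternatives. These comparisons share arrays with those of neurons and stem cells and are no separate evidence. Higher genes made up 48.9% of all genes called between the Neu arrays and 37.4% between the NSC arrays, against 14.8% and 94.1% with spike-in scaling, and 55.8% between the NSC arrays with scaling over probes well above background on all arrays. The median of all genes lay at -0.02 between the Neu arrays and -0.44 between the NSC arrays, and at -0.64 and 0.43 with spike-in scaling.

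**Figure D4:**
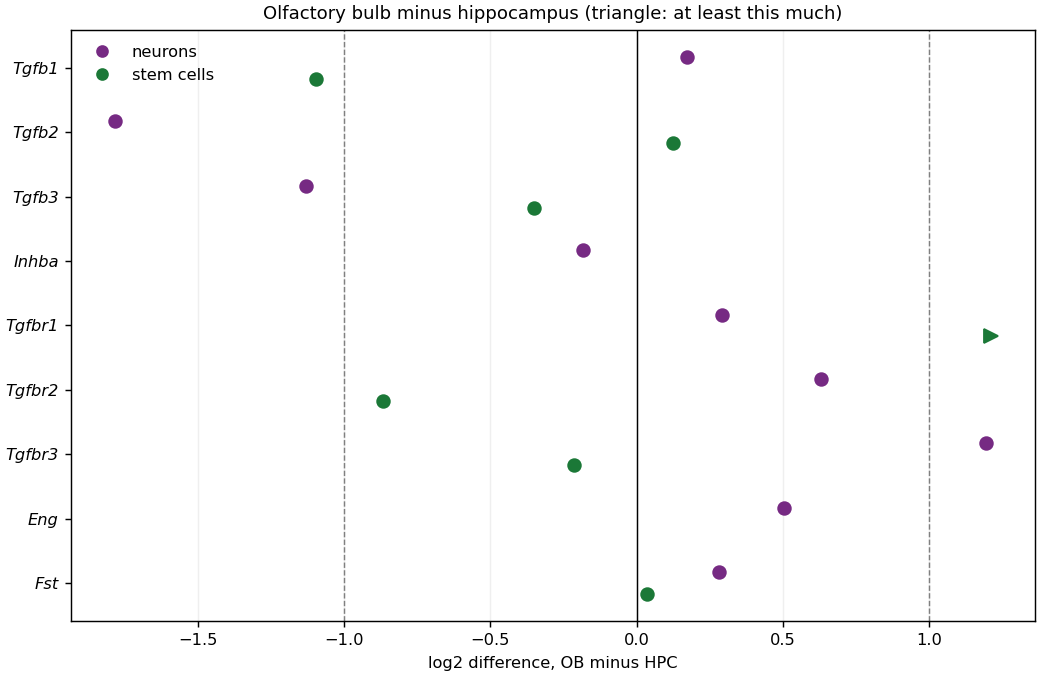
Log2 difference of each gene's brightest probe, olfactory bulb minus hippocampus (horizontal axis), between the Neu arrays (purple) and between the NSC arrays (green), with a triangle where the value is a lower bound and dashed lines at 2-fold. Tgfb2 and Tgfb3 lie lowest and Tgfbr3 highest between the Neu arrays, while Tgfb1 lies at -1.10 between the NSC arrays.

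Further genes of the pathway were taken from a list of 83, of which 49 had a named probe. In bulb cells 28 of 42 compared were higher and 3 lower, and in hippocampal cells 29 of 41 were higher and 1 lower, with medians of 1.93 and 2.13, beside the shares of all genes given above. In each source 9 of the genes compared entered through the Neu array only and could not have been lower. Of the 32 genes well above background on all arrays, 19 were higher and 3 lower in bulb cells, where 19.5% of 5495 genes were higher and 23.1% lower, and 20 were higher and 1 lower in hippocampal cells, where 14.3% were higher and 30.0% lower. Of the 49 genes, 3 also stand in a list of stromal markers (Dcn, Col3a1 and Tagln). Without them the counts were 25 higher and 3 lower of 39 in bulb cells, and 26 higher and 1 lower of 38 in hippocampal cells. Other matrix genes such as Col1a2 and Fn1 are in no marker list and stayed in, so these counts do not set stromal genes apart.

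Genes that store or release latent TGF-beta were higher for 5 of 7 in bulb cells and 7 of 7 in hippocampal cells. Ltbp1, which ties latent TGF-beta to the matrix, was higher by 7.33 and 6.54, and Ltbp2, a related matrix protein, by at least 5.28 and 5.10. Fbn1, the microfibril protein fibrillin, was higher by 4.09 and 4.39. Nrros, which anchors latent TGF-beta1 on microglia and macrophages, was higher by 2.94 in bulb cells and 5.35 in hippocampal cells, and its OB Neu level minus its HPC Neu level was -2.55.

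Of the extracellular antagonists, 5 of 6 were higher in bulb cells and 6 of 6 in hippocampal cells. Dcn, Bgn and Fmod encode small proteoglycans that bind TGF-beta. Dcn was higher by at least 11.03 and 8.07, Bgn by 8.96 and 9.44, and Fmod by 6.22 and at least 8.24. Fstl1, a secreted relative of follistatin, was higher by 3.58 and 3.53. Fstl3, an activin-binding relative of follistatin that was named after its values were seen, was higher by 3.5 and 3.13.

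The receptors of activins and related ligands had no common direction. Of 6 compared in bulb cells, 2 were higher and 2 lower, and of 5 in hippocampal cells 1 was higher and 1 lower. The higher ones were Acvrl1 in both sources and Acvr1c in bulb cells. Neither was well above background on the NSC arrays, so both entered through the Neu arrays only and could not have been lower. None of the other receptors was called higher. Acvr2b, an activin type II receptor, was lower at -2.53 and -1.77, and Acvr1b, which encodes the activin type I receptor ALK4, was lower at -1.08 in bulb cells and differed by -0.98 in hippocampal cells. Acvr2a differed by 0.38 and 0.91. Acvr1c, named after its values were seen, was higher by at least 1.61 in bulb cells and could not be compared in hippocampal cells. Acvr1 differed by 0.59 and -0.02. Thus the activin subunit and its binding protein were higher in both sources. Of the receptor genes that could have gone either way, those called were lower. Acvr2b and Acvr1b had negative differences in both sources, and Acvr2a had positive ones that were under 2-fold.

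Smads and intracellular regulators were near 0 as a list, with medians of -0.06 in bulb cells and -0.07 in hippocampal cells over 7 genes. Smad2 differed by -0.06 and -0.54 and Smad4, the shared partner Smad, by -0.15 and -0.42, while Smad3 was not well above background on any array. Smad7, the inhibitory Smad induced by TGF-beta, was higher by 1.47 and 1.98, and the repressor gene Tgif1 by 1.29 and 1.53. Fkbp1a, which holds the type I receptor inactive, differed by -0.22 and -0.92, and the phosphatase gene Ppm1a by 0.22 and 0.36. Of these values, those for Smad2, Smad4, Fkbp1a and Ppm1a, like that of Acvr2a in bulb cells, are small enough to change sign with the scaling in at least 1 source. Smad2, Smad3 and Smad4 were singled out after their values were seen.

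Among genes known as TGF-beta targets in many cell types, 13 of 15 were higher in bulb cells and 12 of 15 in hippocampal cells, with medians of 2.81 and 3.39. The collagen gene Col3a1 was higher by at least 13.87 and 12.65, the collagen gene Col1a2 by 11.23 and 11.75. Fn1, which encodes fibronectin, was 8.04 higher in bulb cells and 8.31 higher in hippocampal cells. Tagln, an actin-binding protein of smooth muscle, was higher by at least 7.43 and 7.96. The following were named after their values were seen. Ccn2, the connective tissue growth factor gene, was higher by 6.40 and 8.37, the transcription factor gene Snai1 by 5.51 and 4.99, and the cell cycle inhibitor gene Cdkn2b by 2.59 and 3.39. Between the Neu arrays 7 of 15 of these targets were lower in bulb cells and 0 higher. Over the whole list of 42 compared, 12 were lower and 3 higher, where 8.0% of 6999 genes were lower and 7.66% higher. The 3 higher were Dcn by 2.41, the receptor gene Acvr1c by at least 1.30 and Acvr2a by 1.02. Of the lower ones, Ccn2 stood at -1.70, Thbs1, an activator of latent TGF-beta, at -2.25, and Bambi, a decoy receptor gene, at -1.86. These too were named after their values were seen. Many of the target genes are also matrix and smooth muscle genes, and whether the stromal markers account for their levels was not tested.

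**Figure D5:**
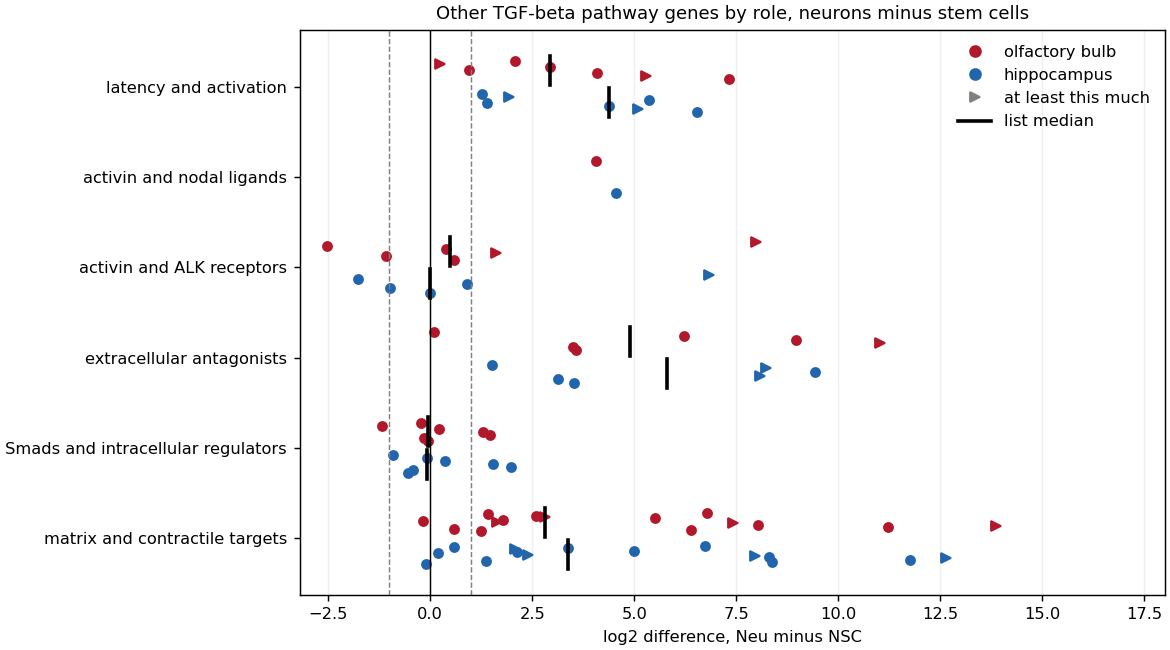
Log2 difference, Neu minus NSC (horizontal axis), of the other pathway genes grouped by role, in olfactory bulb cells (red, upper row of each group) and hippocampal cells (blue, lower row), with triangles for lower bounds, black bars for list medians and dashed lines at 2-fold. Latency genes, antagonists and targets lie mostly to the right of 2-fold in both sources, while the Smads and regulators lie around 0.

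Genes with the profile most like that of each of these genes were sought among the 5495 genes that every array measured well above background, by the root mean square difference of levels over the 4 arrays after centring. The nearest to Tgfb1 was Psen2 (0.03), to Tgfb2 Fam107b (0.14), to Tgfb3 Ccn1 (0.09), to Tgfbr2 Msrb1 (0.05), to Tgfbr3 Azin2 (0.03) and to Fst C1qtnf5 (0.21). The second nearest were Cyp4f6, Pip5k1b, Ppp1r14a, Trpv4, Adam23 and Il13ra1 in the same order. With 4 arrays such likeness is common and is a description only. Ccn1 is itself in the list of TGF-beta targets.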

How the data were processed

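Per the labels, total RNA of 3 experiments was pooled for each of 4 Cy3 arrays. Per the file headers, the authors' scanner files hold intensity values from Agilent Feature Extraction 10.5.1.1, background-subtracted and detrended within an array and not normalized between arrays. The deposited value table held the same intensity values (largest difference 0). The probe design names the build rn4. Other flags of the scanner software, deposited by the authors, mark outlier, saturated and well above background spots.

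Here spots marked as outliers were left out (254 of 41012 probes had none left on an array), spots of a probe were averaged on the log2 scale, which was computed from the deposited intensity, and the 75th percentile of an array was taken off its values. Accessions matched 1 RefSeq symbol for 10783 of 40758 probes and several for 0. Of a gene's probes the brightest over the 4 arrays was used. A gene was compared when well above background on at least 1 array of a pair. A side not well above background was set to the lowest signal that was, or to its own if higher. With 1 array per group there was no test, and precision is limited by the number of arrays. The calls were tested on simulated data. Between 60.2% and 74.0% of probes were well above background.

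The 9 genes and the lists were chosen with earlier results of these data known. Named were all 9 genes, up to 4 genes per list with the largest smaller difference over both sources, any gene called in opposite directions in the sources (0 were found), and the nearest profiles. Alternatives were other scalings, normexp with an offset of 50 (limma 3.58.1) on median spot signals, the ones the files give, filters on dim probes, the mean over probes, outliers kept, the deposited table and a threshold of 1.5.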

Additional observations from a re-analysis of the deposited data

Results flagged for a closer look

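For 4 of the 9 genes the direction of a difference turned between the groups it was measured in. Each such contrast rests on 1 array per side, so none of these differences was tested.

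Tgfb2 was lower on the OB Neu array than on the OB NSC array, at -1.04, and differed by 0.87 between the HPC Neu and HPC NSC arrays. Seen between sources, it was at -1.78 for OB Neu minus HPC Neu and at 0.13 for OB NSC minus HPC NSC, the last within spot noise. Tgfbr2 was higher by 1.40 on the OB Neu array than on the OB NSC array and at -0.10 for HPC Neu minus HPC NSC, also within spot noise, and it was at 0.63 for OB Neu minus HPC Neu and -0.87 for OB NSC minus HPC NSC. With spike-in scaling these last values came to 0.03 and -0.0039, which leaves no turn of direction beyond spot noise. Tgfb1 was at 0.17 for OB Neu minus HPC Neu and at -1.10 for OB NSC minus HPC NSC, this one between -1.29 and -0.23 over the alternative settings. Tgfbr3 was higher by 1.19 on the OB Neu array than on the HPC Neu array and at -0.21 for OB NSC minus HPC NSC, within spot noise. Over the alternative settings the last value ranged from -0.24 to 0.65, that of Tgfb1 between the Neu arrays from -0.43 to 0.21 and that of Tgfbr2 between the HPC Neu and HPC NSC arrays from -0.55 to 0.34, so their signs change with the scaling.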

How the results depend on the processing

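Each of 11 alternatives was set against the values above. Some could not change a difference, such as the deposited table, which held the same values, and the threshold of 1.5, which alters calls only. Of 17 differences of the 9 genes at 2-fold or more, all 17 kept their sign wherever a value could be had and 8 stayed at 2-fold or more wherever they had a value, namely Eng, Inhba and Fst in both sources and Tgfb2 and Tgfb3 between the Neu arrays. Counts that moved by over 1.5 times are as follows, and the cause was not tested except where the setting itself removes genes or raises the threshold. In OB Neu against OB NSC, the count of the 9 genes higher, 6, came to 3 with spike-in scaling, and the count lower, 1, came to 0 with scaling over probes well above background on all arrays, with normexp and at the threshold of 1.5. The other pathway genes lower, 3, came to 1 with that scaling and at 1.5, and to 7 with spike-in scaling. In HPC Neu against HPC NSC, the 9 genes higher, 5, came to 2 when genes had to be well above background on every array, and the pathway genes lower, 1, came to 3 with the median and to 2 with quantile normalization, no filter or the mean over probes. In OB Neu against HPC Neu, the 9 genes higher, 1, came to 0 with spike-in scaling, normexp and 1.5, and those lower, 2, to 1 at 1.5. There the pathway genes higher, 3, came to 1 with spike-in scaling, normexp, the all-array filter and 1.5, and those lower, 12, came to 7 with normexp and 5 at 1.5. In OB NSC against HPC NSC, the 9 genes higher, 1, came to 0 with normexp, the all-array filter and 1.5, and those lower, 1, to 0 with the scaling over all-array probes, spike-in scaling, normexp and 1.5 and to 2 with no filter. There the pathway genes higher, 2, came to 12 with spike-in scaling, 0 with normexp and 1 with the mean over probes and at 1.5, and those lower, 3, to 0 with spike-in scaling, normexp and 1.5 and to 5 with no filter. Normexp with an offset draws differences of dim probes towards 0 by construction. The deposited table and outliers kept moved no count. No paired analysis was possible because each group compared has 1 array, so the groups share no pair of replicates.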
